A study of Mus musculus with 10 samples.

Results

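The genes described here encode the AP-1 proteins Jun, Junb, Jund, Fos, Fosb, Fosl2, Batf and Batf2 and the early growth response proteins Egr1 and Egr2. These 10 genes were listed by name and matched by NCBI gene identifier to 10 of the 39488 rows of the count table. They were followed in RNA-seq libraries of peritoneal macrophages from C57BL/6 mice aged 8 weeks, collected on the third day after thioglycollate, an irritant that draws macrophages into the peritoneal cavity. The 5 control libraries are labelled as untreated. The 5 ox-LDL libraries came from cells primed with 100 ng/ml of LPS, the endotoxin of gram-negative bacteria, and then given oxidized low-density lipoprotein (ox-LDL) at 100 µg/ml for 16 h. Going by these labels the treated cells alone received LPS, although the study's description can also be read as LPS for both groups. The effects of LPS and ox-LDL cannot be told apart, and the values describe a single late time point. The groups are described as biological replicates, and whether each culture came from a separate mouse is not stated, so the p-values below measure the spread between these cultures.

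AP-1 is a family of dimeric transcription factors built from proteins with a basic region that contacts DNA and a leucine zipper that joins the partners. Jun proteins can pair with each other or with Fos proteins, whereas Fos proteins need a Jun partner to bind DNA. Batf proteins also pair with Jun proteins, lack the long activation domains of Fos, and at many sites bind DNA together with interferon regulatory factors. Egr1 and Egr2 are zinc finger proteins that bind GC-rich sites. Jun, Fos and Egr genes are textbook immediate early genes of macrophages, switched on by MAP kinase signaling within minutes of a stimulus and switched off again soon after, and Egr2 is also known from alternatively activated macrophages.

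At 16 h, Batf and Batf2 were the members that rose in ox-LDL-treated macrophages. Batf2 was 16.6-fold higher and Batf 3.89-fold higher than in control cells, and for both genes every ox-LDL library lay above every control library. Of all genes tested, 11.6% were likewise separated upward and 9.11% downward, the latter holding for 0 members. No other member passed an adjusted p of 0.01 in edgeR's quasi-likelihood test, and none was lower at that level. Of the 10 members, 9 had enough counts to be tested and Fosb did not. Thus 2 of 9 members tested (22.2%) were called higher, beside 9.4% of all 12654 genes tested, and 0 of 9 were called lower, beside 5.35% of all genes. In the same test the next lowest unadjusted p-values were 0.0206 for Jund and 0.0252 for Fosl2. The share of all genes at such values was not computed, so no count is drawn from them. The median log2 fold change of the 9 members was 0.73 and that of all genes tested was 0.10. Levels are given as CPM, the count scaled to a library of fixed size after TMM normalization. Fold changes are the fitted ratios of ox-LDL to control with the standard error (SE) on the log2 scale.

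**Figure D1:**
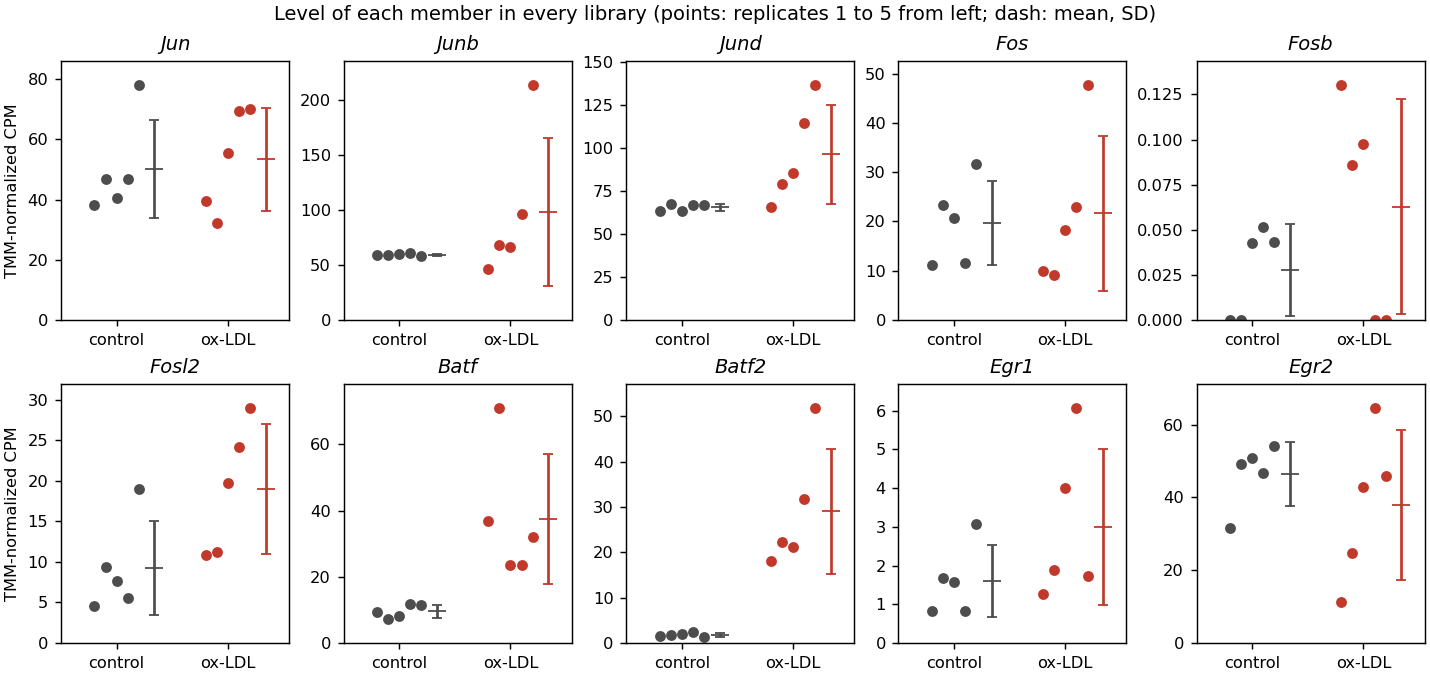
TMM-normalized CPM of each member in the 5 control (grey) and 5 ox-LDL (red) libraries, 1 panel per gene with its own linear axis from 0. Points are replicates 1 to 5 from left to right, and the dash with bar is the mean with its SD. The groups are separate for Batf and Batf2 and overlap for the other 8 genes.

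The total count per library was 19257131 to 20687289, close to even between the groups. Macrophage markers were high in each library, with 7 of 7 markers above 1 CPM in at least 1 library, and 1 of them, Adgre1, was called higher (log2 fold change 2.07, adjusted p = 2.87e-04). B cell markers, given here because lymphocytes express Batf, summed to 0.984 to 2.68 CPM in control and 1.02 to 2.96 CPM in ox-LDL libraries. T and NK cell markers did not reach 1 CPM for any of 5 genes. Mesothelial and stromal markers summed to 12.4 to 43.4 CPM in the control group and 69.9 to 114.7 CPM in the treated group, and of 6 genes the stromal Col1a1 and Dcn were called higher and made up most of the sum. The mesothelial genes Upk3b, Msln and Krt19 had too few counts to be tested, and Upk3b had the lower mean in the treated group (0.524 and 0.0750 CPM). Eosinophil and mast cell markers summed to 2.53 to 8.19 CPM and 0.634 to 2.39 CPM, and Siglecf was called lower. Neutrophil markers ranged from 65.3 to 118.5 CPM and from 65.9 to 239.5 CPM, with S100a8 called higher, Csf3r and Mmp8 not called (log2 fold changes 0.27 and -1.25), and S100a9, Retnlg and Cxcr2 too low to be tested, Cxcr2 with means of 0.467 and 0.0560 CPM. Dendritic cell markers summed to 1.17 to 2.78 CPM and 1.87 to 4.71 CPM, with Clec9a called higher (log2 fold change 2.33, adjusted p = 0.00283), Zbtb46 not called, and Cd209a, not tested, at means of 0.842 and 0.0171 CPM. The part of these other cells in the values below was not tested, and in bulk RNA fewer cells of a type cannot be told apart from less RNA per cell. In control replicate 1, control replicate 4 and ox-LDL replicate 2, long genes were low relative to the rest of the group (Spearman correlation of the deviation with gene length across genes, -0.57, -0.46 and -0.65), whereas in the other libraries it was 0.06 to 0.52. Values without these 3 libraries are given where they differ.

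Promoter sequences are shown for 4 genes that carry the contrast, from 250 bases before to 50 bases after a RefSeq transcription start of build GRCm38.p6. Batf is the member with a window whose level rose, Fos and Jun are the best-known immediate early members, and Egr2 is the EGR member with the higher level. Windows of 8 of the 10 members were used, and none was used for Batf2 and Egr1. The motif search therefore did not cover Batf2 and Egr1. The windows, printed 5′ to 3′ along the gene, are Batf on chr12:85686470-85686769 (plus strand), Fos on chr12:85473640-85473939 (plus strand), Jun on chr4:95052173-95052472 (minus strand) and Egr2 on chr10:67537619-67537918 (plus strand). Capitals mark each match to the 7 motifs searched.
Batf: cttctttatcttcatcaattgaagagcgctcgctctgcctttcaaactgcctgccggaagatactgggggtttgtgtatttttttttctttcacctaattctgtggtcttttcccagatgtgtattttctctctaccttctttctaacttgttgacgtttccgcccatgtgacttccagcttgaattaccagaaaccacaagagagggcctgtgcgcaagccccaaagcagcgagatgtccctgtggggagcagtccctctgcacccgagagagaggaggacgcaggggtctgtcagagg
Fos: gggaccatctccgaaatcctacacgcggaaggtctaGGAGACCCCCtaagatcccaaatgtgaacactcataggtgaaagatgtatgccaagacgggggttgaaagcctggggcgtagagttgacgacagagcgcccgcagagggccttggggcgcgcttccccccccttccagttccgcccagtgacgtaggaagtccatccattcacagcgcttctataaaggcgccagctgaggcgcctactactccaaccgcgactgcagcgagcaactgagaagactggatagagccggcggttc
Jun: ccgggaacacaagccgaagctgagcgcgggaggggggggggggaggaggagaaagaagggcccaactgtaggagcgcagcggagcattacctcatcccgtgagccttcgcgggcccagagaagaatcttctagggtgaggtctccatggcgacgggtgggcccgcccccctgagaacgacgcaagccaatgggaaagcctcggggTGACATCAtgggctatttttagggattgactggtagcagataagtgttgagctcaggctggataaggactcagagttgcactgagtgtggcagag
Egr2: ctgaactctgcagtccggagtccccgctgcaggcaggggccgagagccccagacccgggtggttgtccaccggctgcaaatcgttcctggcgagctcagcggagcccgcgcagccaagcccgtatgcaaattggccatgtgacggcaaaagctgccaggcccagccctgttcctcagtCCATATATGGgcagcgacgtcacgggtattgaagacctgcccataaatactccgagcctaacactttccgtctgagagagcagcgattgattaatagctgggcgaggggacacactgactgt

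Both strands were searched for the AP-1 site TGANTCA, the longer CRE-type site TGACNTCA, the CArG box bound by serum response factor, the EGR site GCGNGGGCG, the interferon regulatory factor site (GAAA, any 2 bases, GAAA), the GAS site TTCNNNGAA and the kappa-B site. The capitals in Jun are the CRE-type site TGACATCA, 45 bases before the start, in a motif that 8.83% of all 32851 windows held. Capitals in Egr2 are a CArG box, found in 1.63% of all windows, and an Egr2 start 61 bases further along shares it. The capitals in Fos are a kappa-B match (8.46% of all windows). The Batf window held no match to any of the 7 motifs. In the other members, kappa-B matches lay in the windows of Fosl2 and Fosb and in a more upstream window of Egr2, EGR site matches in Fosl2 and Fosb (5.55% of all windows), and an interferon regulatory factor site in Fosl2 (3.44% of all windows). Junb and Jund had none, and neither the AP-1 site (7.81% of all windows) nor the GAS site (8.3%) was found in a member window used. These matches describe letters in a short window and were not tested for binding.

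Batf2 (NCBI gene 74481, chromosome 19 of mm9, 6140983 to 6172476, plus strand) encodes a short basic leucine zipper protein known as an interferon-inducible gene of macrophages. Batf2 was at 1.44, 1.75, 1.88, 2.42 and 1.22 CPM in control replicates 1 to 5. In ox-LDL replicates 1 to 5 Batf2 was at 18.0, 22.4, 21.2, 31.8 and 51.9 CPM. The lowest treated library was far above the highest control library, and ox-LDL replicate 5 was the highest. Mean levels were 1.74 ± 0.46 and 29.1 ± 13.8 CPM (SD, n = 5 each), and the fitted change was 4.06 on the log2 scale (SE 0.34, adjusted p = 1.59e-05). With a 95% interval of 9.95-fold to 27.8-fold, Batf2 ranked 182 by fold change among the 1189 genes called higher. The control level rested on 26 to 47 counts per library. In the annotation Batf2 overlaps Arl2 on the opposite strand, and whether counting used the strand is not stated. Batf2 also overlaps the pseudogene Gm5510 and the rRNA gene n-R5s19 on its own strand, whose levels were not examined. Arl2 had means of 29.3 ± 4.53 and 39.7 ± 17.2 CPM in the control and treated groups (log2 fold change 0.44, adjusted p = 0.247).

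Batf (NCBI gene 53314, chromosome 12 of mm9, 87027619 to 87050037, plus strand) encodes the founding member of the Batf proteins, best known for its part in T helper and B cell differentiation. Batf was at 9.46, 7.32, 8.00, 11.8 and 11.3 CPM in control replicates 1 to 5. In ox-LDL replicates 1 to 5 Batf was at 36.7, 71.1, 23.5, 23.6 and 31.9 CPM. Every treated library held at least 23.5 CPM against at most 11.8 CPM in a control library. Mean levels were 9.58 ± 1.98 and 37.4 ± 19.7 CPM (SD, n = 5 each), and the fitted change was 1.96 on the log2 scale (SE 0.31, adjusted p = 8.26e-04, 95% interval 2.42-fold to 6.26-fold). Batf fell just short of the absolute log2 fold change of 2 that the study set beside the p-value, so that under both cutoffs Batf2 alone was called, beside 4.78% of all genes tested that were higher and 1.93% that were lower under both. Batf in ox-LDL replicate 2 stood apart in CPM. Leaving this library out gave Batf a log2 fold change of 1.55 (adjusted p = 1.88e-04). The Batf counts were close, 845 in ox-LDL replicate 1 and 830 in replicate 2, whereas the TMM factors of these libraries were 1.193 and 0.5926. As FPKM, which uses the library total without a TMM factor, the order was different. Batf was at 56.7 FPKM in ox-LDL replicate 1, 53.6 in replicate 2 and 32.4 to 34.5 in the other 3. The gene is short, at 764 bases as implied by the deposited values, and ox-LDL replicate 2 is among the libraries in which long genes were low. Without the 3 such libraries the log2 fold change was 1.66 for Batf (adjusted p = 0.00242) and 4.20 for Batf2 (adjusted p = 7.62e-04).

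**Figure D2:**
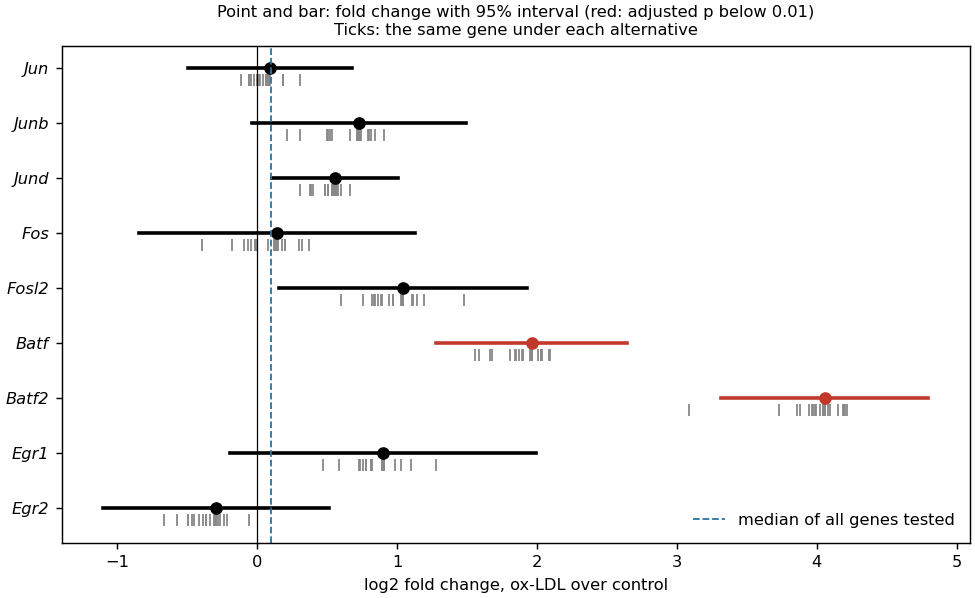
Log2 fold change of ox-LDL over control for the 9 members tested (points) with 95% intervals (bars), red where the adjusted p was below 0.01, and grey ticks for the same gene under each alternative way of processing. The dashed line is the median of all genes tested, 0.10, and the intervals of Batf and Batf2 lie wholly above 1.

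The Jun family supplies the obligate partners of Fos and Batf proteins. Jund (chromosome 8 of mm9, 73221638 to 73224515), the member known for steady expression in resting cells, was at 63.3, 67.3, 63.2, 67.0 and 66.7 CPM in control replicates 1 to 5. It was at 65.6, 78.9, 85.1, 115 and 137 CPM in ox-LDL replicates 1 to 5. Only ox-LDL replicate 1 fell within the control range, and the control libraries were close together, with an SD of 2.04 CPM against 28.9 CPM in the treated group. Jund had a log2 fold change of 0.55 (SE 0.21, 95% interval 1.07-fold to 2.01-fold), with an adjusted p of 0.0685.

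Junb (chromosome 8 of mm9, 87500811 to 87502617), often an antagonist of Jun and an inducible gene in activated macrophages, showed the same narrow control range. Its control libraries held 58.6, 58.6, 60.3, 60.6 and 58.4 CPM. The ox-LDL libraries held 46.3, 68.0, 66.7, 95.9 and 214 CPM. Of the treated cultures, 1 was below all controls and 4 were above them, with ox-LDL replicate 5 highest by far. Mean levels were 59.3 ± 1.05 and 98.2 ± 67.1 CPM (SD, n = 5 each), and the log2 fold change of 0.73 (SE 0.35, adjusted p = 0.149) had an interval from 0.972-fold to 2.82-fold. Leaving out ox-LDL replicate 5 brought the change of Junb to 0.21 (adjusted p = 0.477).

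Jun (chromosome 4 of mm9, 94715725 to 94718913, minus strand) encodes c-Jun, the target of the JNK kinases. Its control libraries held 38.2, 46.9, 40.4, 47.0 and 78.2 CPM and its ox-LDL libraries 39.5, 32.4, 55.4, 69.5 and 70.2 CPM. The ranges overlapped, and control replicate 5 was the highest of all 10 libraries. Jun had a log2 fold change of 0.09 (SE 0.27, adjusted p = 0.842), with an interval from 0.71-fold to 1.60-fold. Its sign was negative under upper-quartile scaling, library size alone and FPKM. Leaving out control replicate 5 brought it to 0.30 (adjusted p = 0.408).

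Among the Fos genes, Fosl2 came nearest to the threshold. Fosl2 (chromosome 5 of mm9, 32438845 to 32460204), which encodes Fra-2, a Fos protein without the strong activation domain of Fos, was at 4.59, 9.33, 7.70, 5.51 and 19.0 CPM in control replicates 1 to 5. It was at 10.8, 11.2, 19.7, 24.2 and 29.0 CPM in ox-LDL replicates 1 to 5. Each treated library was above controls 1 to 4, and control replicate 5 lay among the treated libraries. For Fosl2 the log2 fold change was 1.04 (SE 0.41, adjusted p = 0.0794, 95% interval 1.11-fold to 3.80-fold). Leaving out control replicate 5 gave 1.48 (adjusted p = 0.0108), still short of the threshold, and leaving out the 3 libraries in which long genes were low gave 0.76 (adjusted p = 0.189).

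Fos (chromosome 12 of mm9, 86814840 to 86818223) encodes c-Fos, the classic partner of Jun. The control libraries held 11.2, 23.2, 20.8, 11.5 and 31.6 CPM. The ox-LDL libraries held 10.0, 9.08, 18.3, 22.9 and 47.8 CPM. Treated replicates 1 and 2 were below all controls, replicate 5 was above them and the other 2 lay among them. For Fos the log2 fold change was 0.14 (SE 0.45, adjusted p = 0.858, 95% interval 0.555-fold to 2.18-fold). Its sign turned under several alternatives, among them library size alone and FPKM, and was -0.39 (adjusted p = 0.480) with ox-LDL replicate 5 left out. Fosb (chromosome 7 of mm9, 19888070 to 19895394, minus strand), a Fos protein induced in neurons and other stimulated cells, had 0, 0, 1, 1 and 1 counts in the control libraries and 3, 1, 2, 0 and 0 in the ox-LDL libraries. At libraries of this size its level was at the limit of detection in both groups, so no fold change is given.

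The EGR genes did not pass the threshold in either direction. Egr1 (chromosome 18 of mm9, 35020861 to 35024638) was low, at 0.830, 1.67, 1.58, 0.824 and 3.08 CPM in control replicates 1 to 5 and 1.26, 1.88, 4.00, 6.08 and 1.73 CPM in ox-LDL replicates 1 to 5. Only ox-LDL replicates 3 and 4 were above all controls. The log2 fold change of Egr1 was 0.90 (SE 0.50, adjusted p = 0.210), on 15 to 127 counts per library. The value was 0.47 without ox-LDL replicate 4 and 1.28 without control replicate 5.

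Egr2 (chromosome 10 of mm9, 66998223 to 67004936) was at 31.5, 49.3, 50.9, 46.8 and 54.1 CPM in control replicates 1 to 5, and ox-LDL replicates 1 to 5 held 11.3, 24.7, 42.8, 64.6 and 46.0 CPM. Treated replicates 1 and 2 lay below all controls, replicate 4 lay above them and the other 2 within their range. For Egr2 the log2 fold change was -0.30 (SE 0.37, adjusted p = 0.603), with an interval from 0.465-fold to 1.43-fold. Jun overlaps a gene on the opposite strand in the annotation, as do Jund and Egr1, and none of these 3 neighbors had a count row under its symbol.

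**Figure D3:**
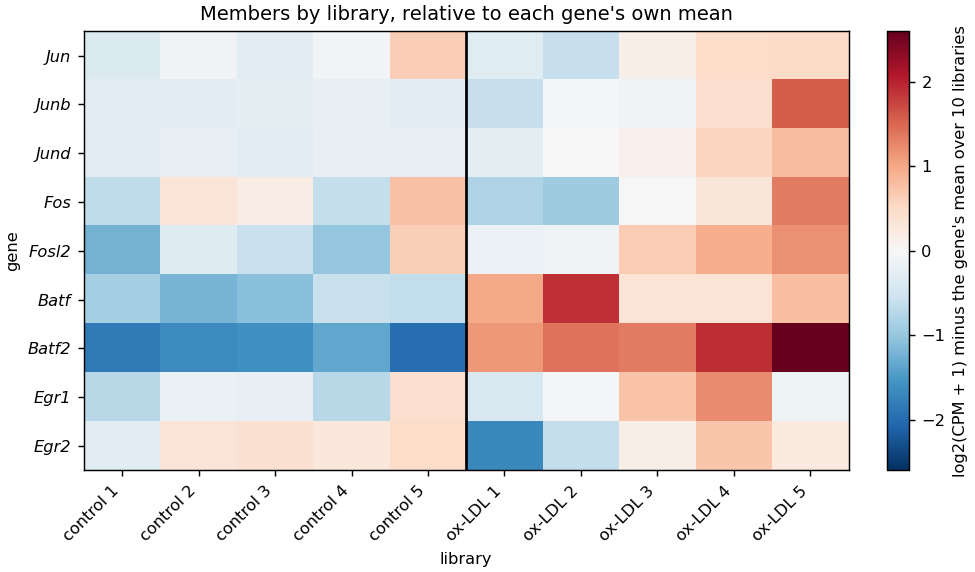
Log2(CPM + 1) of the 9 members tested in each of the 10 libraries, minus the gene's mean over all libraries, with red above and blue below that mean. Batf and Batf2 separate the groups, whereas Jun, Fos, Fosl2, Egr1 and Egr2 are lighter or darker by library within each group.

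Variation between cultures had a shape of its own. Control replicate 5 was the highest control for 5 of the 9 members tested, namely Jun, Fos, Fosl2, Egr1 and Egr2. Among the treated libraries, ox-LDL replicate 1 was the lowest for 6 members and ox-LDL replicate 5 the highest for 6. For Fos, Fosl2, Egr1 and Egr2, control replicates 1 and 4 were both below the other 3 controls, and these are the controls in which long genes were low. The part of that length trend was not tested beyond the alternatives given. Within groups, after the group means were taken off log2(CPM + 1), the Pearson correlation over the 10 libraries was 0.94 between Junb and Jund, 0.93 between Junb and Batf2, 0.92 between Jun and Fosl2 and 0.92 between Fos and Fosl2. Batf had a negative correlation with each of the 8 other members, from -0.48 with Fos to -0.20 with Junb and Batf2. These points share the libraries, their depth and their length trends, and the correlations are descriptions.

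Levels of different genes were compared per gene length, as FPKM. In control macrophages the order by median was Junb (39.3 FPKM), Jund (26.9), Egr2 (19.9), Jun (16.1), Fos (12.4), Batf (12.1), Fosl2 (1.55), Batf2 (1.39), Egr1 (0.63) and Fosb (0.01). The neighbors Egr2 and Jun, Fos and Batf, Fosl2 and Batf2, and Batf2 and Egr1 did not keep their order in all 5 libraries. In ox-LDL-treated macrophages the order was Junb (41.6 FPKM), Batf (34.5), Jund (33.0), Jun (19.4), Batf2 (17.0), Egr2 (13.3), Fos (9.89), Fosl2 (3.62), Egr1 (0.51) and Fosb (0.01). By these medians Batf was the sixth in control and the second in treated libraries, and Batf2 the eighth and the fifth. Libraries differed on these places, since Fosl2 was above Batf2 in 2 of 5 controls and Jun above Batf2 in 1 of 5 treated libraries. By mean FPKM Batf was the fifth in control (13.1 against 11.1 for Fos) and Batf2 the fourth in treated libraries (20.7 against 17.3 for Jun). In the treated group Junb and Batf, Batf and Jund, Jun and Batf2, and Egr2 and Fos did not keep their order in all 5 libraries. Batf was above Fos in 2 of 5 control libraries and in 5 of 5 ox-LDL libraries.

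Within each family the shares of summed FPKM describe which gene makes up most of the transcript pool. Batf made up 90.3% ± 2.53 of the Batf pair in control and 66.7% ± 14.2 in ox-LDL libraries (SD, n = 5 each). The ranges, 88.1% to 94.1% and 50.9% to 84.2%, did not overlap. In the Fos family, taken as Fos, Fosb and Fosl2 without Fosl1, Fosl2 held 13.2% ± 2.42 in control and 25.2% ± 4.94 in ox-LDL libraries. Its share was 26.2% to 30.2% in ox-LDL replicates 1 to 4 against at most 17.2% in a control, whereas ox-LDL replicate 5 held 16.9%. Egr1 held 3.09% ± 1.3 of the EGR pair in control and 7.57% ± 2.60 in ox-LDL libraries, with overlap through ox-LDL replicate 5 at 3.56%. In the Jun family, Junb was on average the largest part per length in both groups, with 46.4% ± 3.46 and 49.2% ± 8.32, whereas by counts Jund was (37.6% and 40.4%), and the shares of Jun and Jund overlapped between groups. No p-value is given for shares, which combine several members.

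**Figure D4:**
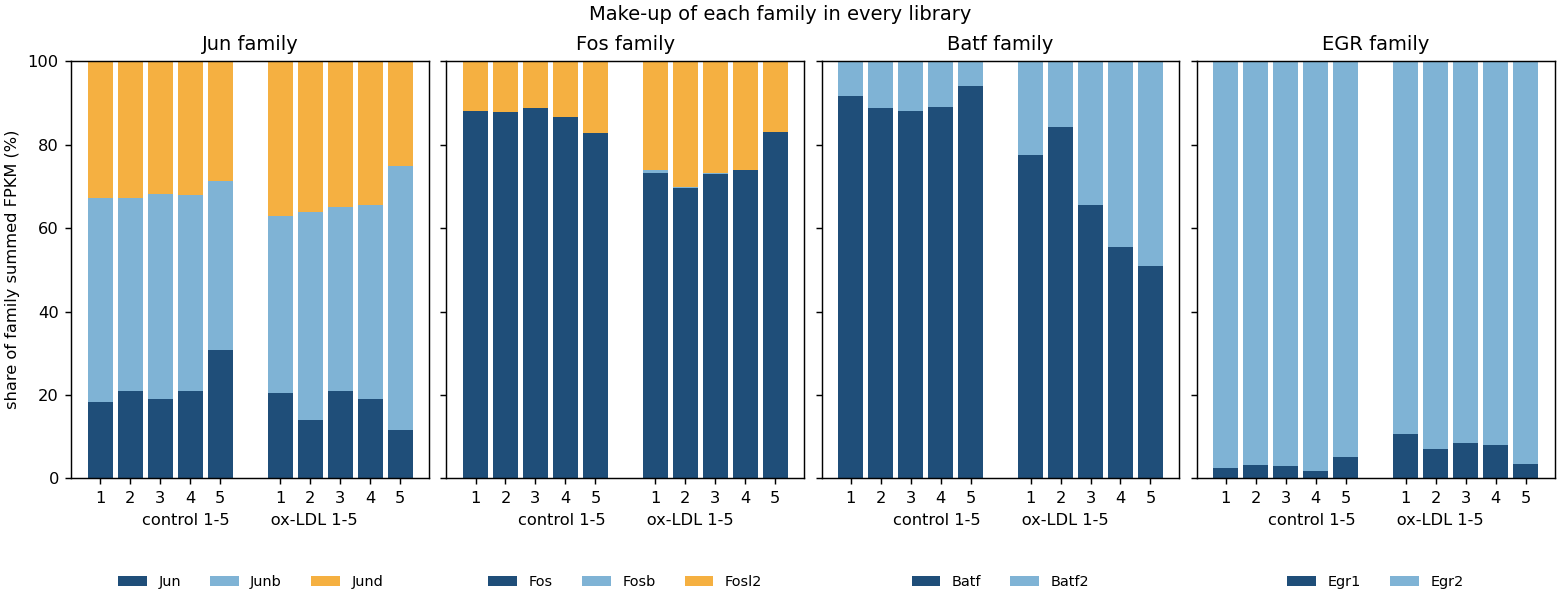
Share of each gene in the summed FPKM of the members of its family (%), stacked for control and ox-LDL replicates 1 to 5. Fosl1 is not a member and is not in the Fos family sum. Batf2 takes up 15.8% to 49.2% of the Batf pair in ox-LDL libraries against 5.90% to 11.9% in control libraries.

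Genes that work with these factors were taken from lists. For the counts below, the shares over all 12654 genes tested were 9.4% called higher and 5.35% called lower. Maff and Atf3 stand both among the bZIP genes and among the other immediate early genes. With each gene counted once, all lists together held 74 genes tested, of which 12 were called higher and 3 lower. Of 3 interferon regulatory factors that bind DNA with Batf proteins, 2 rose. Irf1, a partner of Batf2 in activated macrophages, ranged from 18.4 to 31.7 CPM in control libraries and from 262.9 to 1168 CPM after treatment (log2 fold change 4.70, SE 0.41, adjusted p = 2.14e-05). Irf8, a lineage factor of macrophages, was at 91.9 to 141 CPM and 353 to 1749 CPM (log2 fold change 3.24, SE 0.40, adjusted p = 1.46e-04). Irf4, the partner of Batf in lymphocytes, was low in both groups and had an adjusted p of 0.785.

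Among 9 other AP-1 and bZIP genes tested, 3 rose, 1 fell and 5 did not pass. The median log2 fold change was 0.60. Maff and Mafg, small Maf proteins without an activation domain, rose with log2 fold changes of 2.71 (adjusted p = 3.19e-05) and 1.37 (adjusted p = 7.18e-04). The call of Mafg was lost with library size alone (adjusted p = 0.0213) and with limma on FPKM (adjusted p = 0.0352). Jdp2, a repressor that pairs with Jun, rose from 11.4 ± 1.45 to 63.1 ± 35.8 CPM (SD, n = 5 each; log2 fold change 2.47, adjusted p = 4.41e-04). Maf, a large Maf protein of mature macrophages, fell from 28.0 ± 6.61 to 9.01 ± 3.97 CPM (SD, n = 5 each; log2 fold change -1.64, adjusted p = 0.00189). The call was lost without the 3 libraries in which long genes were low (adjusted p = 0.0160). Atf3, a repressor induced by LPS in macrophages, was high in both groups and had an adjusted p of 0.297. Fosl1, the remaining Fos gene, was not tested for lack of counts and is named after its values were seen. It was at most 0.391 CPM in control libraries and at 0.391, 0.0856, 3.02, 3.73 and 4.06 CPM in ox-LDL replicates 1 to 5.

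Of the EGR list, 2 of 4 genes could be tested. Nab2, a corepressor that Egr proteins induce and that binds them, fell from 28.0 ± 4.87 to 12.3 ± 3.79 CPM (SD, n = 5 each; log2 fold change -1.18, adjusted p = 0.00329), and Nab1 did not pass (adjusted p = 0.460). The call of Nab2 was lost without ox-LDL replicate 3 (adjusted p = 0.0117) and with library size alone (adjusted p = 0.0166). Egr3 and Egr4 were at most at 0.343 CPM in any library.

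Upstream of the members, 22 genes of the MAP kinase cascade and of the factors that act at the CArG box were tested. Of these, 0 rose and 1 fell, with a median log2 fold change of 0.02. The gene that fell was Map2k6, an activator of p38, from 2.59 ± 1.3 to 0.339 ± 0.297 CPM (SD, n = 5 each; log2 fold change -2.87, adjusted p = 0.00625). Its groups overlapped, and the call was lost when control replicate 1, 2, 3 or 4 or ox-LDL replicate 1, 3 or 4 was left out (adjusted p up to 0.0188), without the 3 libraries in which long genes were low (0.0186) and with the replicate block (0.0294). Kinases and ubiquitin ligases that act on Jun and Fos proteins did not pass for any of 6 genes, with a median of -0.57.

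Other immediate early genes were measured at the same 16 h. Of 21 tested, 7 rose, 0 fell and 14 did not pass, with a median log2 fold change of 0.82. Maff, counted above among the bZIP genes, is among those that rose. The largest increases were those of Ccn2, Ccn1, Csrnp1 and Ier3. Ier3, an early stress and NF-kB response gene, rose from 6.34 ± 2.01 to 63.7 ± 39.8 CPM (SD, n = 5 each; log2 fold change 3.32, adjusted p = 1.46e-04). Csrnp1, a nuclear protein induced by Axin, had a log2 fold change of 3.37 (adjusted p = 0.00298). Ccn1 and Ccn2, matricellular proteins made mainly by stromal cells, had log2 fold changes of 4.50 (adjusted p = 9.43e-04) and 4.86 (adjusted p = 0.00251), from at most 0.304 and 0.332 CPM in control libraries. For each of Ccn1 and Ccn2 the control libraries together held 19 counts. The stromal markers Col1a1 and Dcn were higher in the same ox-LDL libraries, with log2 fold changes of 2.72 and 1.57. The part of stromal cells in these values was not tested. Ccn1, Ccn2 and Csrnp1 lost the call without the 3 libraries in which long genes were low (adjusted p of 0.0126, 0.0235 and 0.0230). The call of Ccn2 was also lost with limma-voom (0.0149) and with no filter on low counts (0.0151). That of Csrnp1 was lost with no filter (0.0260) and without control replicate 1 (0.0109) or 4 (0.0108). With ox-LDL replicate 5 left out, the log2 fold changes were 3.68 for Ccn1, 3.35 for Ccn2 and 2.55 for Csrnp1, all still called. Nr4a1, Myc and Ier5, of the same early class, did not pass, with adjusted p values of 0.874, 0.346 and 0.588.

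Of 13 textbook AP-1 or EGR1 target genes that were tested, 1 rose, 0 fell and 12 did not pass, with a median log2 fold change of 0.79. Timp1, an inhibitor of matrix metalloproteinases, rose from 5.10 ± 1.52 to 117.5 ± 59.0 CPM (SD, n = 5 each; log2 fold change 4.52, adjusted p = 1.42e-05). Mmp9, Mmp13, Plau and Ccnd1 did not pass, with adjusted p values of 0.0470, 0.0260, 0.0836 and 0.0211. Their log2 fold changes were 2.05, 2.15, 0.83 and -1.37. Vegfa came nearest to the threshold without passing (log2 fold change 1.77, adjusted p = 0.0142). Lif, of the same list, had too few counts to be tested and is named after its values were seen. It held 2 counts in the control and 157 in the ox-LDL libraries together, with means of 0.0172 and 1.63 CPM.

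**Figure D5:**
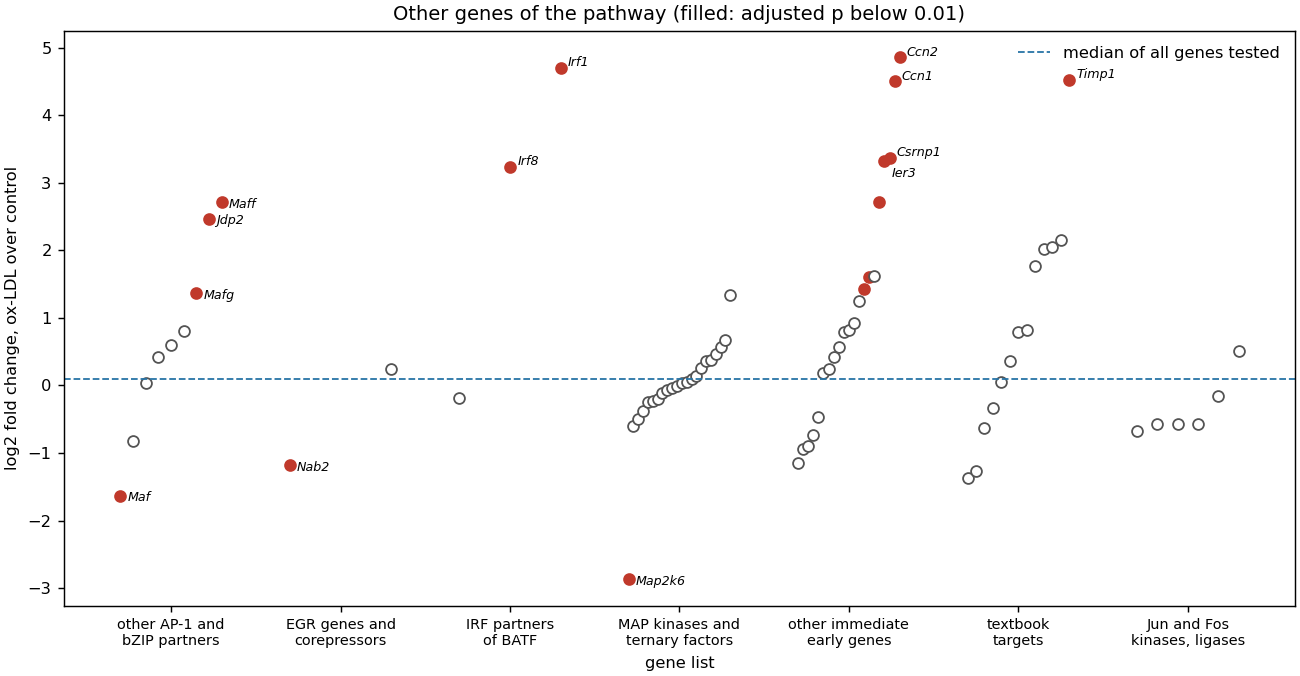
Log2 fold change of ox-LDL over control for each tested gene of the 7 lists, filled red where the adjusted p was below 0.01, with the named genes labelled. The dashed line is the median of all genes tested, 0.10, and Map2k6 is the only called gene among the MAP kinases and the Jun and Fos kinases and ligases.

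Genes with the profile most like that of each member were found by Pearson correlation of log2(CPM + 1) over the 10 libraries, among genes with a mean of at least 10 CPM. For Batf these were Tmem140 (0.99) and Bst2 (0.99), and for Batf2 Agtrap (0.99) and Lrrc8c (0.99), each of them called higher in ox-LDL libraries. After the group means were taken off, the values were 0.98 and 0.93 for Batf and 0.81 and 0.78 for Batf2. For Jun the most alike were Zfp36l2 (0.97) and Erf (0.94), for Fos Gart (0.97) and Tlr6 (0.96), and for Fosl2 Sh3pxd2b (0.99) and Elf4 (0.98). Junb was most like Rraga (0.94) and Tbc1d10a (0.93), and Jund most like Zbtb17 (0.98) and Per1 (0.96). For Egr1 these were Piezo1 (0.94) and Inf2 (0.94), and for Egr2 Amz1 (0.86) and Mtss1 (0.83), the lowest of the members. None of these likenesses for Jun, Junb, Jund, Fos, Fosl2, Egr1 and Egr2 was with a gene past the threshold between groups.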

How the data were processed

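The submitters' processing notes name the mouse build mm9 and the tools FastQC, StringTie (1.3.3.13), SAMtools (1.4) and HISAT2 (2.0.5). The step that counted reads and its use of strand are not given in the sources used here. The deposited table holds estimated counts per gene, of which 13.6% were not whole, and the deposited value per gene and library was taken as FPKM, since counts divided by it and the library total gave a length that varied by a median of 1.49% across libraries. Symbols came from RefSeq (GRCm38.p6, names and promoter windows), and mm9 positions from GENCODE. Rows of 9788 circular RNAs were left out. Estimated counts were rounded, filtered with filterByExpr, normalized by TMM and tested with edgeR 4.0.16 (quasi-likelihood, robust) in R 4.3.3, with Benjamini-Hochberg adjustment over 12654 genes and a threshold of 0.01. SEs were derived from the fold change and F. Closest replicates differed by 10.5 times the counting noise (chi-square per degree of freedom). The tests were also run on simulated counts with less spread between replicates than these data and without their length trend. That run does not give the error rate of the calls made here.

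Named are the 10 members, the 2 genes most like each, and up to 4 called genes per list and direction with the largest changes. Others, among them Atf3, Irf4, Nab1, Nr4a1, Myc, Ier5, Mmp9, Mmp13, Plau, Ccnd1, Vegfa, Fosl1 and Lif, were chosen after their values were seen. From the lists, 2 genes are not reported here and were left out of the counts. The members and lists were chosen with earlier results of these data known. Alternatives were DESeq2 1.42.0, limma-voom (limma 3.58.1), other scalings, filters, rows and thresholds, a fit with a term for the replicate number, leaving out single libraries, removal of the length trend (lowess, span 0.3), and limma on log2(FPKM + 1) for an FPKM of at least 1 in 5 libraries. Leaving out the 3 libraries in which long genes were low was added after the data were seen. Depth (19257131 to 20687289 counts per library) limits genes near 0, such as Fosb.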

Additional observations from a re-analysis of the deposited data

Results flagged for a closer look

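Among 44 groups of 5 libraries examined for members and named genes, 10 held a library that stood apart. Its gap to the nearest neighbor was over 0.71 of the group's range. Of the 18 member groups, 2 held such a library. For normally distributed values about 1 group in 20 would. Whether CPM without a log is so distributed was not tested, and each library flagged was the highest of its group. No excess is therefore drawn from these counts. Jun in control replicate 5 was at 78.2 CPM against 47.0 in the next control, and without that library its log2 fold change was 0.30. Batf in ox-LDL replicate 2 was at 71.1 CPM against 36.7 in the next, replicate 1, and without replicate 2 the log2 fold change was 1.55. Before TMM scaling the counts were 830 in replicate 2 and 845 in replicate 1, with TMM factors of 0.5926 and 1.193.

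Control replicate 5 was also highest for Irf8 (141.0 CPM against 96.2), Csrnp1 (7.65 against 2.78) and Maff (4.52 against 3.32). Ox-LDL replicate 5 was highest for Ier3 (132.5 CPM against 55.4), Csrnp1 (92.7 against 33.8), Ccn2 (19.4 against 3.34) and Ccn1 (11.3 against 3.59). Ccn2 in control replicate 1 was at 0.332 CPM against 0.171. The control libraries held 19 counts of Ccn2 together and at most 6 in any of them, so this value is near the limit of detection.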

How the results depend on the processing

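Batf and Batf2 were called higher under each of the 22 alternatives fitted, with log2 fold changes from 1.55 to 2.09 and from 3.09 to 4.22, and 2 members higher and 0 lower under each. With the cutoff on the fold change as well, 1 member was called. The other members passed under none, and their lowest adjusted p was 0.0108, for Fosl2. Upper-quartile scaling, library size alone, FPKM and no filter moved the median log2 fold change of all genes by -0.15, -0.19, -0.23 and 0.17. The log2 fold change of Jun was -0.058 with upper-quartile scaling, -0.063 with library size alone and -0.12 with FPKM, and -0.044 to 0.30 with libraries left out. That of Fos was -0.046, -0.093 and -0.18 in these, -0.017 with limma-voom, -0.0051 with the replicate block, -0.070 without the 3 libraries in which long genes were low and -0.39 to 0.37 with libraries left out. The causes were not tested.

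Same-numbered libraries deviated with correlations from -0.29 to 0.44. For 4 of 5 numbers the highest correlation with another number was above the own one. The highest of several values often exceeds a single value, so this comparison cannot decide whether the numbers pair the libraries. With the replicate block, Batf and Batf2 were still called and 885 genes were higher and 549 lower. Over all genes, 1189 were higher and 677 lower. The higher count was 704 with library size alone, 555 with FPKM, 2045 at an adjusted p below 0.05 and 605 with the fold cutoff. The lower count was 1244 with DESeq2, 1218 with the length trend removed, 1320 at 0.05 and 244 with the fold cutoff. With libraries left out the counts ranged from 826 to 1755 and from 436 to 1502, both highest without ox-LDL replicate 2, and the lower count fell to 436 without control replicate 4 and 437 without ox-LDL replicate 3. Of the other pathway genes, 12 were higher and 3 lower, 20 and 6 with DESeq2, and the higher count was 11 to 17 with libraries left out. The lower count was 5 with upper-quartile scaling, 9 with the length trend removed, 1 without the 3 libraries and 1 to 4 with libraries left out, lowest without ox-LDL replicate 3.

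By counts, which do not correct for length, the share of Junb was 34.2% in control and 37.2% in ox-LDL libraries, below that of Jund at 37.6% and 40.4%. That of Fos was 69.0% and 50.2%, and that of Batf 84.3% and 55.3%. By mean FPKM 6 of 10 members kept their rank in control, and with libraries left out 6 to 10 did so in control and 6 to 8 in ox-LDL libraries. Depth limits Fosb, Egr3 and Egr4.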
